A study of Mus musculus with 24 samples.

Results

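MOZ-TIF2 (MT2) was compared with an empty GFP vector in mouse granulocyte monocyte progenitors (GMP), the bone marrow cells that give rise to neutrophils and monocytes. The comparison used every sample titled as MT2 GMP (4 arrays) and every sample titled as GFP GMP (3 arrays), which makes 7 of the 24 arrays of the series. All cells were of strain C57BL/6, both groups were transduced by spin inoculation, and GFP-positive cells were lysed 36 hours later, so the control cells also carried a vector and had been through the same culture. The other groups were GMP transduced with NUP98-HOXA9 (NHA9, 3 arrays) or AML1-ETO (AE, 4), fresh untransduced GMP (4), fresh LSK cells (3), which contain the stem cells, and leukemic cells of GMP surface phenotype from a MOZ-TIF2 leukemia model (L-GMP, 3). The ages of the animals, the vector backbone and whether arrays came from separate animals or infections are not given in the sources used here, so p-values measure only how far these arrays scatter, and that scatter may be technical.

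MOZ-TIF2 joins a histone acetyltransferase, MOZ (gene Kat6a), to the nuclear receptor coactivator TIF2 (Ncoa2), and it occurs in acute myeloid leukemia. It is known to give self-renewal to committed myeloid progenitors that normally lack it, and to keep Hoxa genes and Meis1 active. Ribosomes are made in the nucleolus, where RNA polymerase I transcribes ribosomal RNA and large sets of assembly factors fold, cut and modify it. Myc is a known activator of those assembly genes. Neutrophil granule proteins appear in a fixed order, primary granules first and secondary and tertiary granules as cells mature.

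Expression is given as log2 values on the deposited scale, and differences are MT2 minus GFP in log2 with their standard error (SE) and the Benjamini-Hochberg adjusted p of limma over all probe sets tested. A gene "rose" or "fell" where at least 1 of its probe sets had an adjusted p under 0.05, and single values come from the gene's probe set with the highest mean. Of 11113 probe sets over the background level of 60 (5.91 in log2), 1316 were called, or 11.8%, with 8.91% higher and 2.93% lower in MT2. By gene, 750 of 6961 rose (10.8%) and 246 fell (3.53%). Over the 6957 genes with a tested chosen probe set, the median difference was 0.06. Of these genes 59.4% lay higher in MT2 at any size (4131 higher and 2826 lower), the share against which such counts below are to be read. On every MT2 array 18.1% lay higher than on every GFP array, and 9.77% lay lower on every MT2 array.

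The MT2 and GFP arrays differed little in technical measures. Between 46.1% and 48.3% of probe sets lay over background on each of the 24 arrays, and the 3' minus 5' signal of Gapdh, a measure of RNA quality, was 2.67 to 3.96 on MT2 arrays and 2.71 to 3.60 on GFP arrays. Over all 24 arrays that signal ran more widely, from 2.50 on AE array 2 to 4.82 on L-GMP array 1. MT2 array 4 carried another file-name tag than the other 6 arrays. GMP array 4 and AE arrays 2 to 4 shared the tag of MT2 array 4, and LSK array 3, NHA9 array 3 and L-GMP arrays 2 and 3 carried none. GMP markers were high in both groups: Mpo averaged 13.17 in MT2 and 13.31 in GFP, and Elane 13.05 and 13.24. Of 17 B cell markers, 2 to 4 were over background on an MT2 array and 3 to 4 on a GFP array, and of 19 T and NK cell markers 1 to 3 on any of the 7. The summed linear level of 15 erythroid markers was lower in MT2 (1101 to 1410 against 1525 to 2081), with Tfrc, the transferrin receptor gene of all growing cells, its single called member (difference −0.76, SE 0.18, adjusted p = 0.0289). The sum of 8 eosinophil markers was lower too (247.6 to 318 against 315.9 to 431.3). Of its 3 tested members Prg2 fell (−1.26, SE 0.34, adjusted p = 0.0396), Rnase2a rose (1.08, SE 0.19, adjusted p = 0.0116) and Siglecf did not pass (−1.07, adjusted p = 0.077). The sum of 15 megakaryocyte markers was uneven in MT2 (1372 to 3501 against 1901 to 2804), and Thbs1 fell by a second probe set. Whether cells of other types had a part in the differences below was not tested. In bulk RNA, fewer cells of a type and less RNA per cell cannot be told apart.

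Of 18 tested transcription factor genes of stem and progenitor cells, 6 rose (Sox4, Meis1, Tal1, Lmo2, Etv6 and Lyl1), Mycn fell and the others did not pass, while 15 lay higher at any size. Lmo2, a LIM-only bridging protein of the stem cell transcription complex, stood at 11.39, 11.06, 10.90 and 11.37 on MT2 arrays 1 to 4 and at 10.08, 10.30 and 9.60 on GFP arrays 1 to 3. No MT2 array overlapped a GFP array, and the difference of 1.19 (SE 0.18, adjusted p = 0.00853) is 2.28-fold. Tal1, which binds DNA in the same complex, read 7.26, 7.14, 6.44 and 7.73 in MT2 and 5.93, 5.93 and 5.54 in GFP, at least 2.36-fold higher (difference 1.34, SE 0.25, adjusted p = 0.0141). GFP arrays 1 and 2 lay at the background level and MT2 array 3 stood nearest to them. Lyl1, a close relative of Tal1, rose by 0.66 (SE 0.17, adjusted p = 0.0323), and Etv6, an ETS repressor needed by stem cells, by 0.83 (SE 0.16, adjusted p = 0.0153).

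Sox4, an HMG-box factor of progenitors, read 8.89, 8.12, 8.13 and 9.01 on the MT2 arrays against 5.74, 4.64 and 5.42 on the GFP arrays, all of them under background. The size of its increase depended on the probe set: 3.27 by this one and 1.11 for the mean of the gene's probe sets (limma adjusted p = 0.00328). Meis1, the Hox cofactor, was uneven: 6.54, 6.14, 5.21 and 7.21 in MT2 against 4.17, 3.79 and 4.31 in GFP, so that MT2 array 3 was itself under background. Hoxa9 read 10.92, 10.47, 10.17 and 11.20 against 9.40, 8.90 and 9.28. The increase did not extend to every Hoxa gene on the array. Hoxa7 averaged 6.97 ± 0.08 (SD, n = 4) in MT2 and 6.88 ± 0.07 (n = 3) in GFP (difference 0.09, SE 0.10, adjusted p = 0.615), and Hoxa10 was under background on all 7 arrays. Without GFP array 2, 2 of the 6 increases kept an adjusted p under 0.05, those of Sox4 and Lmo2, and Meis1 and Tal1 stood at 0.0551 and 0.055.

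**Figure D1:**
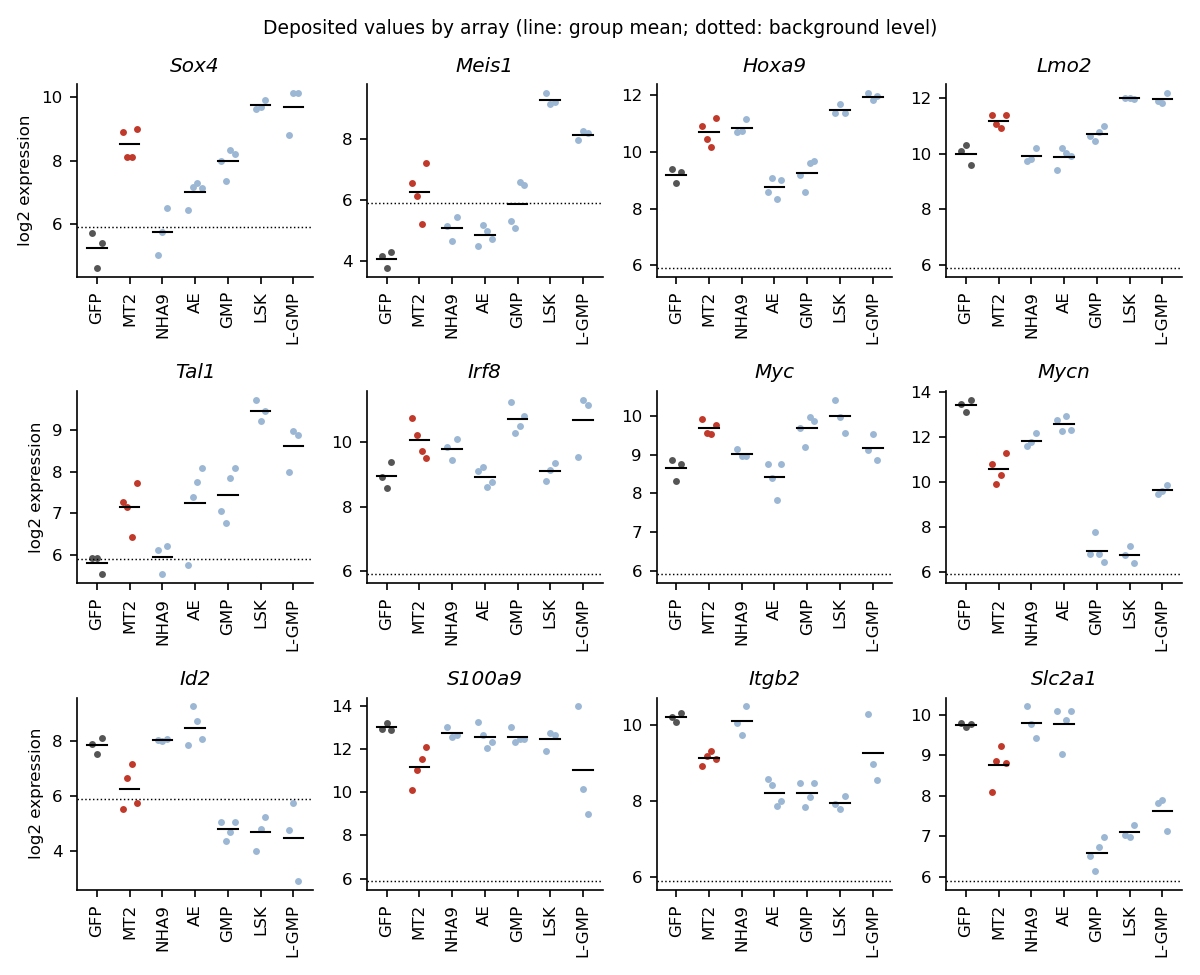
Log2 expression of 12 genes on each of the 24 arrays, by group, with the group mean as a line and the background level of 60 as a dotted line; MT2 is red and GFP is dark grey. MT2 lay above GFP on every array for Sox4, Meis1, Hoxa9, Lmo2, Tal1, Irf8 and Myc, and below it for Mycn, Id2, S100a9, Itgb2 and Slc2a1.

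Myc and Mycn moved in opposite directions. Myc stood at 9.92, 9.55, 9.53 and 9.76 on the MT2 arrays and at 8.87, 8.32 and 8.75 on the GFP arrays, without overlap (difference 1.05, SE 0.16, adjusted p = 0.00845). Mycn read 10.81, 9.90, 10.30 and 11.28 in MT2 and 13.45, 13.12 and 13.65 in GFP. The size of its decrease depended on the probe set: −2.83 by this one and −0.84 for the mean of the gene's probe sets (limma adjusted p = 0.00442). Myc and Mycn both kept an adjusted p under 0.05 without any 1 array, the highest being 0.041 for Myc and 0.0247 for Mycn. Of the partners and antagonists, Mxd3, a repressor that competes with Myc for Max, fell by 0.43 (SE 0.10, adjusted p = 0.0249), and Max itself was under background (5.70 ± 0.21, n = 4, and 5.60 ± 0.32, n = 3).

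Among myeloid regulators, the monocyte and dendritic cell factor Irf8 rose and the Id proteins, which block E protein binding, fell. Irf8 read 10.76, 10.24, 9.73 and 9.51 in MT2 and 8.92, 8.57 and 9.40 in GFP, so that MT2 array 4 lay close to GFP array 3 (difference 1.10, SE 0.29, adjusted p = 0.0371). Zeb2 rose by 0.95 (SE 0.17, adjusted p = 0.0113), Mef2c by 0.97 (SE 0.21, adjusted p = 0.0215), Cebpd by 0.79 (SE 0.20, adjusted p = 0.0323) and Mef2d by 0.51. Id2 read 5.53, 6.66, 7.17 and 5.73 against 7.88, 7.55 and 8.11, and Id3 fell from 6.61 ± 0.27 (n = 3) to 5.43 ± 0.66 (n = 4), which is under background. The core GMP factors did not pass: Cebpa differed by 0.27 (adjusted p = 0.167), Spi1 by 0.28 (0.262) and Gfi1 by 0.33 (0.318). In all 5 of 21 myeloid factors rose and 3 fell (the third was Stat3, by a second probe set). All 8 calls were lost without GFP array 2, where the adjusted p of Zeb2 was 0.053. The 3 decreases were also lost without GFP array 3, where 3 rose, and 2 rose and 2 fell without MT2 array 1 or GFP array 1.

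Most genes that assemble ribosomes rose, and few genes of the ribosome's own proteins did. Of 35 genes of the small subunit processome, the nucleolar complex that cuts the precursor of the small subunit RNA, 26 rose, and the list median was 0.64. Of 40 factors that assemble the large subunit, 30 rose, all 40 lay higher at any size, and the median was 0.56. Of 14 core proteins and assembly factors of the box C/D and H/ACA snoRNPs, which methylate and pseudouridylate ribosomal RNA, 9 rose (median 0.54). Both numbers include Zmynd19, which is not known as a snoRNP protein. Against these, 2 of 41 cytosolic ribosomal protein genes rose, Rpl12 and, by a second probe set, Rps9, with a median of 0.02. That median is 0.01 after quantile normalization and −0.10 after centring each array on its median, whereas the processome stays at 0.55 and 0.52.

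On single arrays the medians kept this order. Relative to the GFP mean, the processome median was 0.79, 0.59, 0.43 and 0.77 on MT2 arrays 1 to 4 and 0.06, −0.04 and −0.02 on GFP arrays 1 to 3. For large subunit assembly it was 0.67, 0.50, 0.38 and 0.66 in MT2 and 0.07, −0.13 and 0.05 in GFP. For cytosolic ribosomal proteins it was 0.0034, 0.012, 0.028 and 0.0038 in MT2, inside the range of the GFP arrays (−0.03 to 0.03). MT2 arrays 1 and 4 carried the largest shift in the assembly lists and MT2 array 3 the smallest. Of the 26 processome genes called, 13 were highest on MT2 array 1 and 12 on MT2 array 4.

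Utp4, a processome scaffold, read 9.75, 9.40, 9.45 and 9.61 in MT2 and 8.72, 8.51 and 8.58 in GFP (difference 0.95, SE 0.12, adjusted p = 0.00603). Pno1, a late assembly factor of the small subunit, read 9.75, 9.47, 9.48 and 9.75 against 8.71, 8.82 and 8.78 (0.85, SE 0.12, adjusted p = 0.0068). Neither gene overlapped between the groups. On the large subunit side, Nop2, a methyltransferase of the large subunit RNA, read 8.31, 8.20, 8.00 and 8.28 against 7.41, 6.95 and 7.23 (1.00, SE 0.14, adjusted p = 0.00659). Sdad1 rose by 1.00 (SE 0.13), Ppan by 1.03 (SE 0.15), Rrs1 by 1.14 (SE 0.22) and Tsr1, which joins the small subunit late, by 1.14 (SE 0.20). Among snoRNP genes, the box C/D core genes Nop56, Nop58 and Fbl rose by 0.79, 0.80 and 0.55, and the H/ACA genes Nhp2, Gar1 and Naf1 by 0.65, 0.53 and 0.74.

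**Figure D2:**
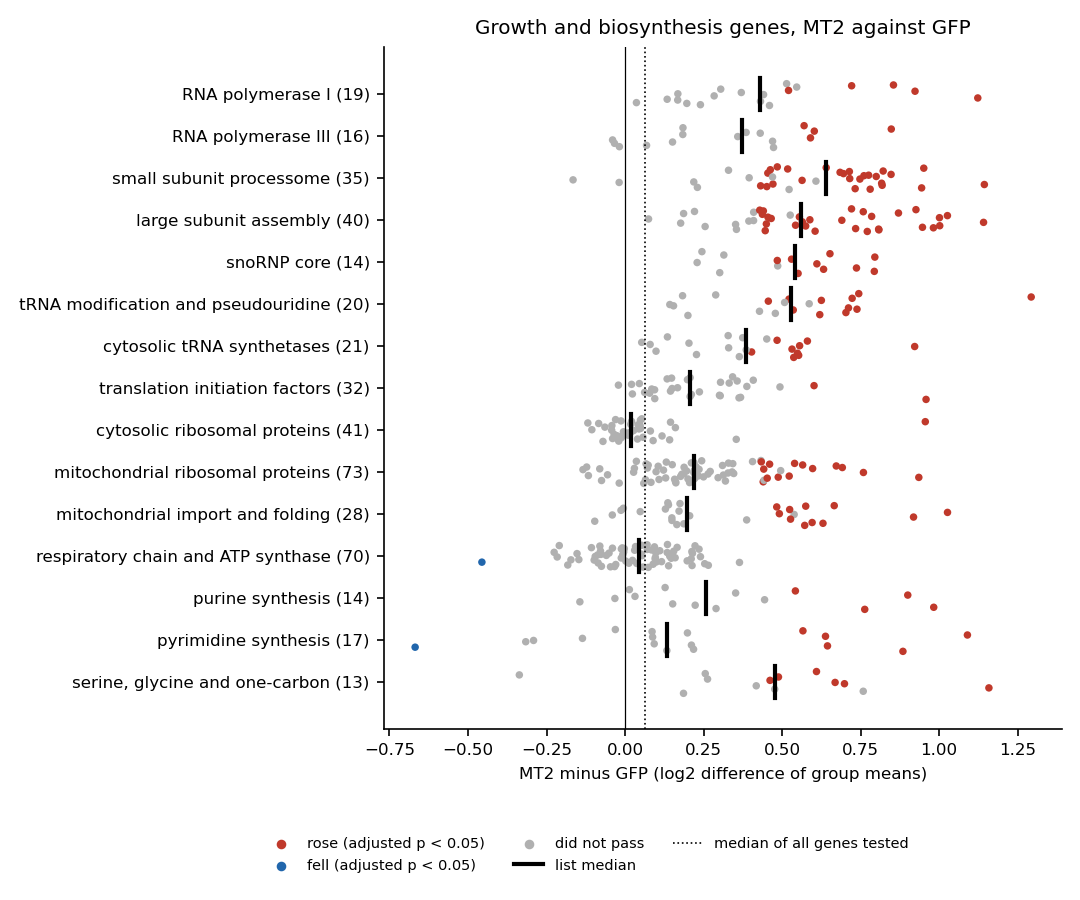
Difference of MT2 and GFP (log2) for each tested gene of 15 lists of growth and biosynthesis, with the number of genes in brackets; red genes rose, blue genes fell, grey genes did not pass, bars mark list medians and the dotted line marks the median of all genes. The processome and large subunit lists sit to the right of that line, with medians of 0.64 and 0.56, while cytosolic ribosomal proteins and the respiratory chain sit on it.

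The promoters of 2 assembly genes that rose are shown because they hold the letters CACGTG, the E-box that Myc with Max is known to bind. Each sequence is the 250 bases before an annotated start of the gene on its own strand, from RefSeq on GRCm38.p6, with the E-box in capitals. The Nol11 promoter lies on the minus strand at chr11:107189382-107189631 and its E-box begins 43 bases before the start. The Nop2 promoter lies on the plus strand at chr6:125131633-125131882 and its E-box begins 60 bases before the start.
Nol11: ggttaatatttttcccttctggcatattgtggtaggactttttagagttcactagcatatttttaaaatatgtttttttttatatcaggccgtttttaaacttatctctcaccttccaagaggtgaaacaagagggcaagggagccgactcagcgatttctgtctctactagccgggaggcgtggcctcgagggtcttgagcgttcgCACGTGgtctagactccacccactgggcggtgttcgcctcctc
Nop2: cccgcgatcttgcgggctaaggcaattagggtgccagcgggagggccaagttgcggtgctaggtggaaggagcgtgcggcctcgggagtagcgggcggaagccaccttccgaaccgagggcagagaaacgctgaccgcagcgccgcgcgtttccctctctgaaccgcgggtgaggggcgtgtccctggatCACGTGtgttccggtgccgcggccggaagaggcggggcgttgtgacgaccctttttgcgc

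The E-box was counted over all tested members of each list, whether or not they rose. A gene counted if the window of the same length before at least 1 of its annotated starts held the E-box. Shares therefore also depend on how many starts a gene has: 6.86% of all genes with a promoter counted, and 6.02% of single starts. The E-box was found in 607 of 5757 tested genes with a promoter in the table (10.5%), and its letters read the same on both strands. It was found in 6 of 28 processome genes (21.4%), in 2 of 34 large subunit assembly genes (5.88%), in 1 of 17 polymerase I genes (5.88%) and in 4 of 36 cytosolic ribosomal protein genes (11.1%). The shares were 25% in polymerase III, 24% among initiation factors, 21.4% among tRNA synthetases, 21.4% in purine synthesis and 33.3% among lysosome genes. Other lists with genes that rose held few or none: 0 of 11 snoRNP genes, 0 of 12 one-carbon genes and 0 of 9 polyamine genes. The share was 6.67% in pyrimidine synthesis, 7.94% among mitochondrial ribosomal proteins, 12.5% in tRNA modification and 16% in mitochondrial import. A match is a description of the letters and not a binding site, and other windows were not searched.

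Fewer genes of the polymerases that supply ribosomal and transfer RNA passed. Of 19 genes of RNA polymerase I and its factors, 7 rose and all 19 lay higher at any size (median 0.43). Polr1e, a polymerase I subunit, read 7.19, 7.03, 6.74 and 6.87 in MT2 and 5.77, 5.77 and 5.97 in GFP, at least 2.08-fold higher (difference 1.12, SE 0.13, adjusted p = 0.00517). The GFP arrays lay near background, and all MT2 arrays lay above it. Nolc1, a nucleolar phosphoprotein, rose by 0.92 (SE 0.15) and Tcof1, the treacle protein that brings polymerase I to ribosomal DNA, by 0.85 (SE 0.13). For RNA polymerase III, 4 of 16 genes rose, with Polr3e at 0.85 (SE 0.17), and 13 lay higher at any size. The 4 calls were lost without GFP array 2, and the count was 1 without MT2 array 1 or GFP array 3, 2 without MT2 array 2 or GFP array 1, and 8 without MT2 array 3.

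About as many genes that modify and charge transfer RNA rose as did not pass. Of 20 tRNA modification and pseudouridine synthase genes, 11 rose, and all 20 lay higher (median 0.53). Pus7, a pseudouridine synthase, had the largest difference of any gene in the assembly lists, at 8.24, 8.03, 7.55 and 8.08 in MT2 and 7.06, 6.47 and 6.51 in GFP (1.29, SE 0.19, adjusted p = 0.00845). The tRNA methyltransferase genes Nsun2 and Trmt10c rose by 0.71 and 0.74, and Wdr4, which serves the tRNA methyltransferase Mettl1, by 0.72 (SE 0.11, adjusted p = 0.00853). Of 21 genes of cytosolic tRNA synthetases and their scaffold, 10 rose and all 21 lay higher (median 0.39), led by the scaffold gene Eef1e1 (0.92, SE 0.12, adjusted p = 0.00653). Initiation factors were largely outside the calls: 2 of 32 rose, Eif1a (0.96, SE 0.18, adjusted p = 0.0146) and the cap-binding factor Eif4e (0.60, SE 0.14, adjusted p = 0.0243), although 31 lay higher (median 0.21).

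These counts depended on single arrays. Without GFP array 2 the number of genes that rose was 8 in the processome, 5 in large subunit assembly, 1 in the snoRNP list, 3 in polymerase I, 2 in tRNA modification and 1 among the synthetases, with limma on 6 arrays. Without GFP array 1 the processome count was 17 and the large subunit count 13, and without MT2 array 1 they were 17 and 16. For large subunit assembly it was 18 without MT2 array 4 and 19 without GFP array 3. For the synthetases it was 2 to 5 without MT2 array 1, 2 or 4 or GFP array 1, and for the snoRNP list 4 or 5 without MT2 array 1 or 2 or GFP array 1. After quantile normalization the processome count was 19 and the large subunit count 21, and in a fit to 24 arrays with the file-name tag as a factor they were 10 and 7. Without that factor they were 7 and 5, and 1 synthetase gene rose in either of these fits. The separation of the arrays depends on no such threshold: 29 of 35 processome genes and 35 of 40 large subunit genes were higher on every MT2 array than on every GFP array, where 18.1% of all genes were. Among 41 cytosolic ribosomal protein genes there were 5 of this kind, and among 73 mitochondrial ribosomal protein genes 30.

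Mitochondrial genes of import and of the ribosome rose in part. Of 28 genes of protein import and folding, 14 rose (median 0.20). Timm10, a chaperone of the intermembrane space, read 9.33, 9.10, 8.94 and 9.16 in MT2 and 8.15, 7.87 and 8.31 in GFP (difference 1.03, SE 0.14, adjusted p = 0.00659), and Timm9, its partner, rose by 0.92 (SE 0.19). The channel gene Tomm40 rose by 0.58 and the mitochondrial Hsp70 gene Hspa9 by 0.67. Of 73 mitochondrial ribosomal protein genes 15 rose (median 0.22), with Mrps6 at 0.94 (SE 0.17) and Mrps18b at 0.67 (SE 0.12). Of 70 respiratory chain and ATP synthase genes, 1 rose (Cycs, by a second probe set) and 1 fell (Ndufv3, −0.46, SE 0.13, adjusted p = 0.0448), and the median of 0.04 is −0.07 after centring. Under the same centring the import median was 0.08 with 7 genes that rose, and the mitochondrial ribosomal median 0.10 with 6 (7 after quantile normalization). In a fit to 24 arrays 1 import gene and 0 mitochondrial ribosomal protein genes rose, and with the file-name tag as a factor 1 and 1. Without GFP array 2, 1 import gene rose and all 15 mitochondrial ribosomal protein calls were lost. Without GFP array 1 these counts were 4 and 2, and without MT2 array 1, 6 and 4. Without MT2 array 2, MT2 array 4 or GFP array 3 they were 7 and 7 to 9.

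In the pathways that make nucleotides, one-carbon units and polyamines, 28.6% to 69.2% of a list rose, against 10.8% of all genes. In purine synthesis 4 of 14 rose: Ppat, the first enzyme of the pathway (0.54), Gart (0.98), Adsl (0.76) and Adss (0.90). Gart, which holds several steps of the pathway in a single protein, read 9.91, 9.38, 9.41 and 9.77 in MT2 and 8.46, 8.69 and 8.75 in GFP (SE 0.16, adjusted p = 0.00863). In pyrimidine synthesis 5 of 17 rose, among them Cad, which starts the pathway (0.88, SE 0.17), and the next enzymes Dhodh (1.09, SE 0.17, adjusted p = 0.00871) and Umps (0.57, SE 0.12). Rrm2, the reductase subunit that makes deoxynucleotides, fell instead (−0.67, SE 0.13, adjusted p = 0.0141), at 10.82, 10.90, 10.73 and 10.49 in MT2 and 11.46, 11.46 and 11.29 in GFP. All 5 pyrimidine genes that rose were highest on MT2 array 1.

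Of 13 genes of serine, glycine and one-carbon metabolism 9 rose (median 0.48), among them Phgdh and Psat1 of serine synthesis (0.61, SE 0.13, and 0.46, SE 0.11), Gcsh of glycine cleavage (0.67, SE 0.15) and Mthfd1 (0.49, SE 0.12). Cth, which makes cysteine, rose by 1.16 (SE 0.31, adjusted p = 0.0396). In polyamine and methionine salvage 5 of 13 rose: Odc1, the first enzyme (0.91, SE 0.18), Srm, spermidine synthase (1.08, SE 0.15), and the salvage genes Mtap, Enoph1 and Mri1 (0.74, 0.74 and 0.49). Srm read 11.30, 10.96, 11.07 and 10.90 in MT2 and 10.01, 9.70 and 10.22 in GFP, without overlap. Of these 13 genes 4 lay lower at any size, and 2 lay lower on every MT2 array. The largest difference of the list was a decrease, −2.62, which did not pass. In the fits to 14 and to 24 arrays 1 gene of the list fell. The list median was 0.17, and 0.05 after quantile normalization or median centring. In a fit to 24 arrays 0 purine, 1 pyrimidine, 0 one-carbon and 3 polyamine genes rose. With the file-name tag as a factor 2, 1, 0 and 3 rose. Without GFP array 2, 1 purine, 1 pyrimidine, 2 one-carbon and 3 polyamine genes rose. The one-carbon count also moved without MT2 array 1 or GFP array 1 or 3 (2 to 7 over all arrays), and the pyrimidine count without MT2 array 1, 2 or 4 or GFP array 1 or 3 (1 to 5).

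Few genes of cell division passed. Of 44 S phase genes 2 rose (Pold2, 0.70, SE 0.13, and Gins1, 0.47, SE 0.12) and 2 fell (Rrm2 and Ccne2). Of 48 mitosis genes 1 passed, the condensin gene Smc4, at 11.87, 11.69, 11.68 and 12.46 in MT2 and 10.92, 10.91 and 10.58 in GFP (1.12, SE 0.19, adjusted p = 0.0107), while 42 lay lower at any size (median −0.21). Only 3 of the 48 lay lower on every MT2 array, where 9.77% of all genes did. Relative to the GFP mean the mitosis median was −0.44, 0.06, −0.17 and −0.24 on MT2 arrays 1 to 4. On the GFP arrays it was −0.04, 0.03 and 0.02, so MT2 array 2 lay above them. Among chaperones 9 of 26 rose, with the Hsp110 gene Hsph1 at 0.98 (SE 0.20) and the chaperonin subunits Cct7 and Cct8 at 0.42 and 0.49. In nuclear transport 8 of 43 rose, led by Rcc1, the exchange factor of Ran (0.82, SE 0.13, adjusted p = 0.00929), and by the export receptor gene Xpo5 (0.64, SE 0.14). In a fit to 24 arrays, with or without the file-name tag as a factor, 0 chaperone and 0 transport genes rose. The chaperone count was 2 without GFP array 1 or 2, 4 without MT2 array 1 and 5 without GFP array 3. The 8 transport calls were lost without GFP array 2, and the count was 2 without MT2 array 1 or GFP array 1, 3 without GFP array 3, 5 without MT2 array 4 and 12 without MT2 array 3.

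Of 18 secondary and tertiary granule genes, which mark maturing neutrophils, 7 fell and 11 did not pass (median −0.79). On every MT2 array 10 lay lower than on every GFP array, where 9.77% of all genes did. In a fit to 24 arrays with the file-name tag as a factor 2 fell, with adjusted p values of 0.417 for Lcn2 and 0.07 for Ceacam1, and without that factor the 7 calls were lost. Lcn2, the iron-siderophore binder of secondary granules, read 10.47, 10.79, 11.33 and 10.89 in MT2 and 11.93, 12.02 and 12.01 in GFP, 2.17-fold lower (difference −1.11, SE 0.18, adjusted p = 0.00873). Ceacam1, an adhesion protein of granulocytes, read 7.60, 7.75, 7.56 and 7.63 against 8.48, 8.65 and 8.39 (−0.87, SE 0.11, adjusted p = 0.00598). The collagenase gene Mmp8 fell by 1.52 (SE 0.34) and Padi4, which citrullinates histones in neutrophils, by 1.23 (SE 0.32). Of 17 genes listed for primary granules 3 fell and 4 lay lower on every MT2 array (median 0.03), and the difference from the late granule genes was not tested. They were the protease inhibitor gene Serpinb1a (−0.55, SE 0.12, adjusted p = 0.0185), Gstm1 by a second probe set, and Igfbp4, which encodes a secreted growth factor binder and is not known as a granule protein. All 3 calls were lost without GFP array 1 or 2, and that of Igfbp4 without any 1 of the 7 arrays. The main primary granule proteins were near the top of the scale in both groups: Prtn3 averaged 13.37 ± 0.02 (n = 4) and 13.34 ± 0.03 (n = 3), and Ctsg 13.50 ± 0.09 and 13.26 ± 0.08, a difference of 0.24 with an adjusted p of 0.162.

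Of 14 S100 and annexin genes, which encode calcium-binding proteins, 6 fell (S100a6, S100a8, S100a9, S100a10, Anxa1 and Anxa2), and 13 lay lower at any size (median −0.42). S100a10, the partner of annexin A2, read 7.61, 8.34, 7.97 and 7.52 in MT2 and 8.81, 8.95 and 9.38 in GFP (−1.19, SE 0.21, adjusted p = 0.0114), and Anxa2 fell by 1.25 (SE 0.26, adjusted p = 0.0186). S100a9 was spread over the MT2 arrays, at 10.09, 11.02, 11.52 and 12.07, against 12.93, 13.22 and 12.86. MT2 array 1 was the lowest for 5 of the 7 granule genes that fell and for 4 of the 6 S100 and annexin genes. Without GFP array 2, 2 granule genes and 2 S100 genes fell. Without GFP array 1 or 3 the granule count was 2 or 4.

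**Figure D3:**
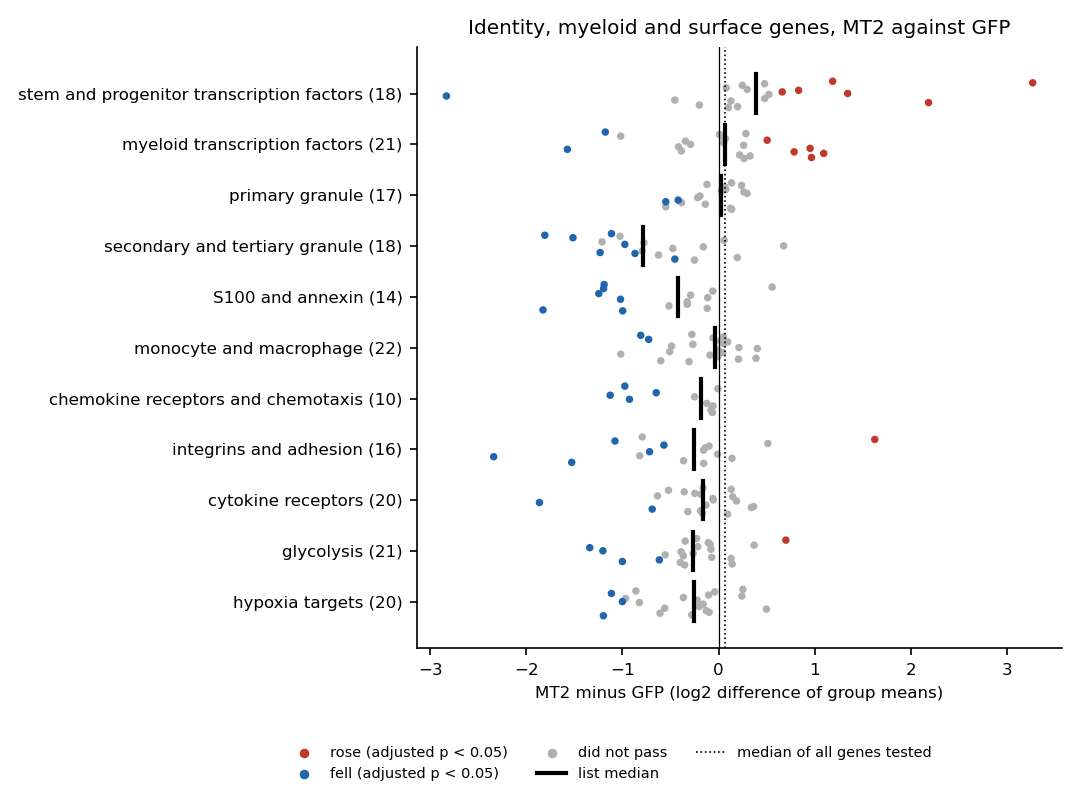
Difference of MT2 and GFP (log2) for each tested gene of 11 lists of identity, myeloid and surface genes, with colours, bars and lines as in the plot of growth and biosynthesis lists. Secondary and tertiary granule genes (median −0.79) and S100 and annexin genes (median −0.42) lie to the left of the primary granule genes (median 0.03).

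Several receptor and adhesion genes of migrating myeloid cells fell. Itgb2, the beta-2 integrin chain of leukocytes, read 8.93, 9.19, 9.32 and 9.12 in MT2 and 10.23, 10.09 and 10.33 in GFP, 2.11-fold lower (−1.08, SE 0.12, adjusted p = 0.0051), and it stayed called without any 1 array (highest adjusted p 0.0257). Of 16 integrin and adhesion genes 5 fell (Fn1, Itgb2, Itgb5, Itgb7 and Selplg, the selectin ligand) and Gja1 rose. Without MT2 array 1 or any 1 of the GFP arrays the count that fell was lower, down to 2. All 10 tested chemokine and chemoattractant receptor genes lay lower and 4 fell. Ccr1 read 7.84, 8.03, 9.02 and 8.43 against 9.37, 9.52 and 9.49 (−1.13, SE 0.24, adjusted p = 0.0185), and the leukotriene B4 receptor gene Ltb4r1 fell by 0.98 (SE 0.23). Cxcr2 (−0.93, SE 0.26, adjusted p = 0.0468) overlapped between the groups: MT2 array 3 (6.49) stood above GFP array 2 (6.48). Ccr1, Ltb4r1 and Cxcr2 each lost the call without GFP array 1, 2 or 3, at adjusted p values up to 0.0771, 0.0814 and 0.138, and Ffar2, a short-chain fatty acid receptor gene, without GFP array 2 (0.053).

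The cytoskeletal genes Coro1a, Vim and Arhgap4, and Lsp1, an actin-binding protein of leukocytes, fell by 0.65 (SE 0.13), 0.84 (SE 0.17), 0.58 (SE 0.11) and 1.47 (SE 0.24). Of the pattern recognition receptors, Clec7a, the beta-glucan receptor dectin-1, read 7.22, 7.81, 8.13 and 7.92 in MT2 and 9.06, 9.06 and 8.81 in GFP (−1.21, SE 0.19, adjusted p = 0.00929). Clec4n, the related receptor dectin-2, rose instead: 10.86, 9.38, 9.77 and 9.46 against 9.24, 7.86 and 8.16 (1.45, SE 0.39, adjusted p = 0.0386), with MT2 array 2 close to GFP array 1 and the call lost without MT2 array 1, 3 or 4 or GFP array 2 or 3. Nfkbia, the inhibitor of NF-kB and one of its targets, fell by 0.74 (SE 0.13, adjusted p = 0.0115), as did F13a1 and Ctsl by 0.73 and 0.81, the 2 of 22 monocyte and macrophage genes that passed (9 of the 22 higher at any size, median −0.03).

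Some genes of glycolysis and of the hypoxia response fell. Slc2a1, the glucose transporter GLUT1, read 8.09, 8.87, 9.23 and 8.81 in MT2 and 9.80, 9.70 and 9.76 in GFP, 2.00-fold lower (SE of the log2 difference 0.22, adjusted p = 0.0215). The lactate exporter gene Slc16a3 fell by 1.20 (SE 0.31) and Slc16a1, the other monocarboxylate transporter, rose by 0.70 (SE 0.14, adjusted p = 0.0152). Of 21 glycolysis genes 5 fell and 2 rose (median −0.26), and of 20 hypoxia targets 3 fell, Slc2a1, Bhlhe40 (−1.20, SE 0.26) and Ndrg1 (−1.12, SE 0.27). Relative to the GFP mean the hypoxia median was −0.92, −0.45, −0.05 and 0.15 on MT2 arrays 1 to 4, and all 3 hypoxia genes that fell were lowest on MT2 array 1. Slc2a1, Bhlhe40 and Ndrg1 each lost the call without GFP array 1, 2 or 3. The 5 glycolysis decreases were lost without GFP array 2 or 3, and 1 gene fell without MT2 array 1 or GFP array 1 and 2 without MT2 array 2.

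Several genes of large change stand outside these groups. Git2, a GTPase-activating protein of Arf proteins, read 10.99, 10.57, 10.38 and 11.03 in MT2 and 9.62, 9.46 and 9.52 in GFP (1.21, SE 0.17, adjusted p = 0.00659). Crlf3, a cytokine receptor-like factor, rose by 1.55 (SE 0.20), Frat2, an inhibitor of GSK3, by 1.42 (SE 0.22) and Ift80, a gene of ciliary transport, by 1.21 (SE 0.23). Klrb1f, a lectin-like receptor of NK cells, read 8.00, 7.23, 7.07 and 6.96 against 5.70, 5.84 and 6.01, at least 2.65-fold higher. Plp2, a membrane protein of myeloid cells, fell by 1.60 (SE 0.26), and Ets1 by 1.01 (SE 0.23) to a mean under background. Among chromatin genes Dnmt3b, a de novo DNA methyltransferase, rose by 0.90 (SE 0.17), the mitochondrial deacetylase gene Sirt3 by 0.80 (SE 0.16) and the acetyltransferase gene Kat2a by 0.66 (SE 0.15). For the mean of its probe sets Kat2a did not pass (0.32, limma adjusted p = 0.111). The mouse partner genes of the fusion did not mark the MT2 arrays: Kat6a averaged 7.73 and 7.94 (−0.21, adjusted p = 0.262) and Ncoa2 was under background. The place of these probe sets relative to the fused parts is not known here, so they check nothing about the label.

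Whether the differences belonged to MT2 among the oncogenes was tested as MT2 minus the mean of NHA9 and AE in a fit to the 14 transduced arrays. The contrast uses the MT2 arrays again and leaves the GFP arrays out, although they are in the fit and add to its estimate of the spread. Of 7177 genes, 10.1% were higher and 13.7% lower in MT2. In the processome 26 of 35 genes were higher (median 0.63) and in large subunit assembly 29 of 40 (median 0.55). In serine, glycine and one-carbon metabolism 10 of 13 were higher and in the snoRNP list 10 of 14. Lmo2 (1.28, SE 0.17, adjusted p = 0.000301), Sox4 (2.14, SE 0.29, adjusted p = 0.000263) and Smc4 (1.41, SE 0.22, adjusted p = 0.000602) were higher than the mean of the other oncogenes. Sox4 was not higher in MT2 alone: it read 6.45, 7.16, 7.30 and 7.13 on AE arrays 1 to 4, above every GFP array. On NHA9 arrays 1 to 3 Sox4 read 5.06, 5.75 and 6.53. Tal1 (0.54, adjusted p = 0.301), Mef2c (−0.16, 0.65) and Lyl1 (0.04, 0.87) did not pass. Tal1 was uneven in AE: 5.77 on AE array 1, the only AE array with the file-name tag of the GFP arrays. On AE arrays 2 to 4 it read 7.39, 7.76 and 8.10, and on NHA9 arrays 1 to 3 it read 6.11, 5.55 and 6.22. Whether the tag had a part in the result for Tal1 was not tested.

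Among the genes that fell, 10 of the 17 late granule genes tested in this comparison and 8 of 14 S100 and annexin genes were lower in MT2 than in the mean of NHA9 and AE. Id3 was 2.67 lower (adjusted p = 0.000217) and Slc2a1 1.04 lower (adjusted p = 0.00575). Itgb2 was the reverse case: it fell against GFP but was 0.03 lower than the mean of the other oncogenes (adjusted p = 0.93). Against GFP its difference was −0.11 in NHA9 and −1.99 in AE. For the processome the median difference from GFP was 0.04 in NHA9 and 0.00 in AE, values that share the GFP arrays with the 0.64 of MT2.

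The levels in fresh cells place these values. Utp4 averaged 9.56 ± 0.16 (n = 4) in MT2 and 9.42 ± 0.26 (n = 4) in fresh GMP, against 8.60 ± 0.11 (n = 3) in GFP, 8.79 ± 0.16 (n = 3) in NHA9 and 8.61 ± 0.36 (n = 4) in AE. Srm averaged 11.06 in MT2, 11.14 in fresh GMP and 9.98 in GFP. Myc averaged 9.69 in MT2, 9.68 in fresh GMP and 8.65 in GFP, while Lmo2 in MT2 (11.18 ± 0.24) lay between fresh GMP (10.71 ± 0.22) and LSK (11.99 ± 0.02). Slc2a1 averaged 6.59 in fresh GMP, 9.75 in GFP and 8.75 in MT2. Mycn went from 6.96 ± 0.59 (n = 4) in fresh GMP to 13.41 ± 0.27 in GFP and stood at 10.57 ± 0.60 in MT2. GFP arrays enter both of these contrasts, so the values are given side by side and no relation between them was computed.

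The early change was then set against the change in leukemia, L-GMP minus fresh GMP, which shares no array with it. The difference of the differences passed for 663 of 7298 genes (9.08%). Ribosome assembly lists had medians near 0 in leukemia, 0.05 for the processome and 0.03 for large subunit assembly, but the difference from the early change passed for only 2 of 35 and 1 of 40 genes. Nop2 was higher in both (1.00 early and 0.96 in leukemia, adjusted p of the difference 0.958). Sox4, Meis1, Lmo2 and Tal1 were higher in both, by 3.27, 2.19, 1.19 and 1.34 early and by 1.71, 2.27, 1.24 and 1.17 in leukemia, and their differences between the comparisons did not pass (adjusted p 0.063 to 0.96). The GFP values of Sox4 and Meis1 were under background, so the sizes of their early increases are not exact. Smc4 was likewise higher in both (1.12 and 1.54, adjusted p of the difference 0.53).

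Other genes went separate ways. Myc was higher early and 0.51 lower in leukemia (difference of the differences 1.56, adjusted p = 0.00505), and Mycn was lower early and 2.68 higher in leukemia (−5.51, adjusted p = 2.21e-08). Itgb2, Ccr1 and Slc2a1 fell early and were 1.05, 1.32 and 1.03 higher in leukemia (adjusted p = 0.0015, 0.00028 and 0.0018). Itgb2 was uneven in leukemia, at 10.30, 8.98 and 8.57 on L-GMP arrays 1 to 3. In fresh GMP it read 8.47, 7.85, 8.10 and 8.49. The receptor genes Kit and Csf1r differed little early (0.13 and 0.09) but by −2.25 and 1.65 in leukemia, and Adgrl4, an adhesion G protein-coupled receptor, rose by 1.19 early and was 2.39 lower in leukemia (difference 3.58, adjusted p = 1.22e-05). Late granule genes were lower in both, with medians of −0.79 early and −0.72 in leukemia. In L-GMP S100a9 was uneven over the arrays (11.04 ± 2.60, n = 3), at 13.97 on array 1 and 10.17 and 8.99 on arrays 2 and 3. The leukemia medians were not split by array.

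**Figure D4:**
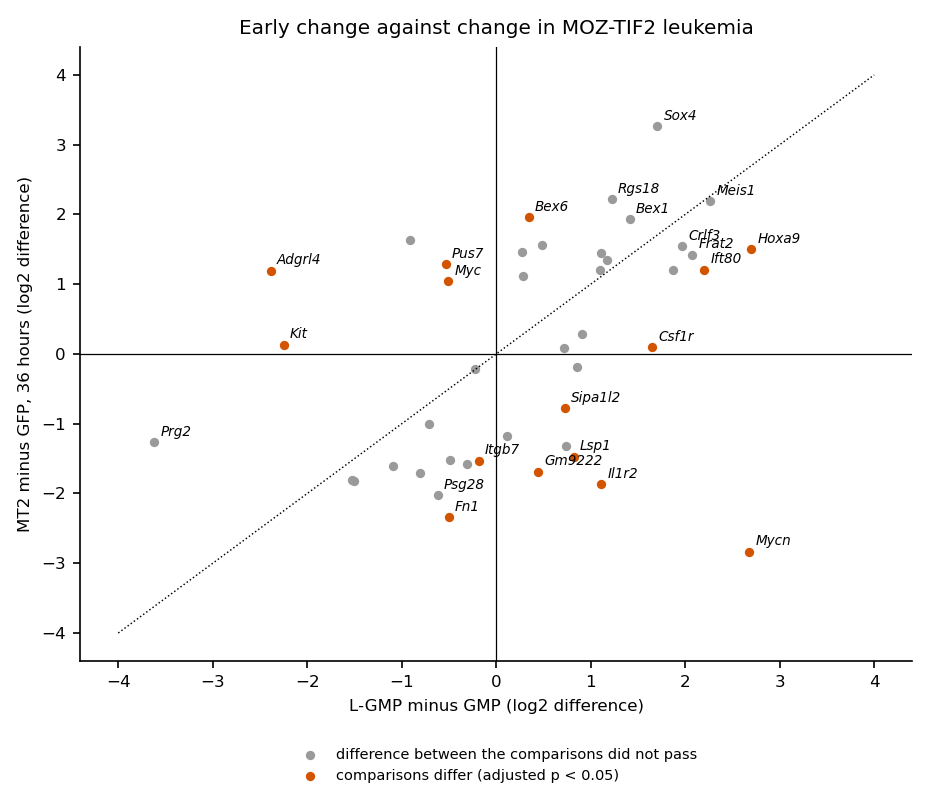
MT2 minus GFP at 36 hours (vertical, log2) against L-GMP minus fresh GMP (horizontal, log2) for the named genes of largest change and the fixed genes; orange marks genes whose 2 differences differ with an adjusted p under 0.05, and the dotted line marks equal values. Sox4, Meis1 and Crlf3 lie at the upper right, Myc, Pus7 and Adgrl4 in the upper left and Mycn in the lower right.

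Precision is limited by the number of arrays, and GFP array 2 weighed most. The count of 1316 probe sets was 568 without MT2 array 1, 536 without GFP array 1, 696 without GFP array 3 and 170 without GFP array 2. Of 178 genes named by the rule 169 were called, and 47 of these kept an adjusted p under 0.05 with each array left out in turn. Among them are Sox4, Hoxa9, Lmo2, Rgs18, Myc and Mycn, the assembly genes Utp4, Pno1, Wdr75, Pwp2, Nop2, Gnl3, Ppan, Sdad1, Naf1, Polr1e and Tcof1, and the lower genes Itgb2, Lcn2, Ceacam1, S100a6, S100a10, Clec7a and Nfkbia.

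**Figure D5:**
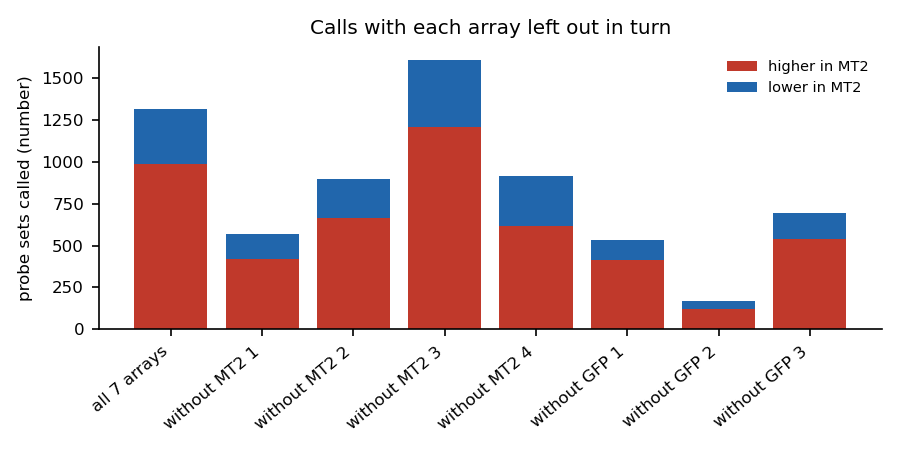
Number of probe sets called in MT2 against GFP (stacked bars, higher in red and lower in blue) with all 7 arrays and with each array left out in turn. The count ranges from 170 without GFP array 2 to 1607 without MT2 array 3.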

How the data were processed

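Messenger RNA was measured on Affymetrix Mouse Genome 430A 2.0 arrays. The deposited table holds log2 expression values that the authors made with GCRMA 2.4.1 from MAS5 intensity files (per the submitters' processing notes for the tool, and per the design text for the input). That text also says that outlier arrays were dropped, without naming them. Values ran from 1.72 to 14.39, and no further normalization was applied.

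Of 22690 probe sets, 64 controls were left out, and genes were named from the 20380 probe sets with 1 symbol. MT2 and GFP arrays were grouped by title and compared with limma 3.58.1 in R 4.3.3 (lmFit, eBayes) on the deposited log2 values, for probe sets over 60 (linear) on at least 2 arrays of a group, with Benjamini-Hochberg adjustment. MT2 minus the mean of NHA9 and AE was fitted to 14 arrays, and MT2 minus GFP less L-GMP minus GMP to all 24. The fits were tested on simulated data. A fold against a group under 60 is a lower bound against 60.

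Genes were compared by 64 lists (1552 genes on the array). Genes named are the 12 largest increases and decreases without overlap, 6 each way from or to under background, up to 4 called members of each list by adjusted p, and fixed genes (Kat6a, Ncoa2, Hoxa7, Hoxa9, Hoxa10, Meis1, Csf1r, Spi1, Flt3, Kit, Myc, Mycn, Max). Other list members were named after their values were seen. The samples compared and the lists were chosen with earlier results of these data known. Figures used matplotlib 3.10.9. A result on 1 gene list is not reported here.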

Additional observations from a re-analysis of the deposited data

Results flagged for a closer look

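In 11 of 178 named genes 1 MT2 array lay far from the other 3, where chance alone marks about 1 in 20 groups. Higher than the rest were Il17ra on MT2 array 2 (8.594), Rpl12 (8.082), Sirt3 (9.304), Arhgap4 (6.698) and Kat6a (7.969) on MT2 array 4, Cct7 on MT2 array 1 (11.53) and Ifitm6 on MT2 array 3 (10.24). Lower than the rest were Bex6 on MT2 array 2 (7.979), Gins1 on MT2 array 3 (7.827), H2-Oa on MT2 array 1 (5.556) and Csf1r on MT2 array 4 (12.3).

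The early difference was tested against the difference in leukemia for 44 named genes, and 15 differed by limma over all 24 arrays. Over all genes 9.08% did. Most of the 44 were picked by their called difference of MT2 and GFP, and the same values enter this contrast. A higher share was therefore built in, and the count is no result about these genes. The early difference was the larger for Bex6 (by 1.617), Pus7 (1.828), Adgrl4 (3.579), Kit (2.385) and Myc (1.557). It was the smaller or more negative for Hoxa9 (−1.198), Ift80 (−0.9905), Mycn (−5.511), Fn1 (−1.839), Il1r2 (−2.976), Itgb7 (−1.344), Lsp1 (−2.289), Gm9222 (−2.127), Sipa1l2 (−1.51) and Csf1r (−1.553). Hoxa9 and Ift80 were higher in both comparisons, and Il1r2 and Lsp1 fell early and were 1.11 and 0.82 higher in leukemia.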

How the results depend on the processing

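The count of MT2 against GFP (1316 probe sets) kept within 1.5 times under an intensity trend, quantile normalization, median centring, no filter, a filter at 120, the 6 arrays of the shared tag and the file-name prefix as a block. It was 572 in a fit to the 14 transduced arrays, 190 in a fit to 24 arrays, 303 in that fit with the tag as a factor, and 170 to 1607 with 1 array left out. The methods' t-test called 0 probe sets after adjustment, with 2473 at an unadjusted p under 0.05, against 3315 by limma. Leaving out an array also leaves fewer degrees of freedom; other causes were not tested. The share of calls that were higher was 75.2%, or 57.5% after quantile normalization and 49.2% after median centring, which moved the median of all probe sets from 0.07 to −0.04. MT2 against the mean of NHA9 and AE gave 2637 probe sets, 4071 within the tag, and 1471 to 2880 with 1 array left out. The difference from leukemia gave 970, and 659 to 1363 with 1 array left out. Whether replicate numbers of the titles pair the arrays could not be told from so few arrays. Same-numbered deviations correlated at 0.007, 0.106 and 0.147, and differently numbered ones at −0.196 to 0.154. With the replicate block 982 probe sets were called for MT2 against GFP, 1925 against the other oncogenes and 845 in the difference from leukemia. Of the 169 named genes called, 140 remained called within the tag, 154 after quantile normalization, 138 with the block and 65 with the tag as a factor. For the mean of each gene's probe sets 150 remained called, and the rest did not pass or lay under the filter. Among those that did not pass by limma were Cct8 (0.22, adjusted p = 0.154), Umps (0.35, 0.0758) and Ets1 (−0.53, 0.0504).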
